A study of Mus musculus with 18 samples.

Results

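Autophagy is the route by which a cell wraps proteins or whole organelles in a double membrane and delivers them to the lysosome, and mitophagy is its selective form for mitochondria. A kinase complex built around ULK1 starts the membrane, the lipid kinase complex that holds beclin 1 marks it, small ubiquitin-like proteins of the ATG8 family (LC3 and GABARAP) coat it, and receptors such as p62, BNIP3 and BNIP3L tie the cargo to that coat. In liver the route is known to respond to feeding and fasting, and TFEB is a transcription factor that turns on lysosomal and autophagy genes.

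The genes described here are 10 members of that machinery, taken by symbol: the mitophagy receptors Bnip3 and Bnip3l, the cargo receptor Sqstm1, the ATG8 genes Map1lc3a, Map1lc3b and Gabarapl1, the initiation genes Ulk1, Becn1 and Wipi1, and the regulator Tfeb. All 10 were found, each with 1 transcript cluster (the array's unit for a gene), among the 65956 transcript clusters tested, of which those listed for a single gene named 30738 genes. The transcript cluster used for Bnip3l was also listed for the pseudogene Bnip3l-ps, so the signals of the gene and the pseudogene could not be split. Total liver RNA was hybridised to 1 Clariom D array per mouse, in 6 groups of 3 C57BL/6J males kept under alternating light and dark with free access to food. HFN mice ate a diet with 53% of its energy as fat for 8 weeks. They stayed on that diet while they received NAD+ (50 mg/kg, intraperitoneally, each day at ZT11 for 3 weeks). HF mice ate the same diet over the same time and received saline in place of NAD+. CD mice ate chow and, per the study's description, also received saline. Livers of each treatment were taken at ZT18 (night, the active phase of mice) or at ZT6 (day), where ZT counts hours after lights on.

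The values are deposited log2 signals, and a difference of 1 is a doubling. Array medians lay between 4.29 and 4.42 and the medians of the negative-control probes between 4.58 and 5.01, and the signal of each of the 10 genes lay above the negative-control median on all 18 arrays. All 6 hepatocyte markers were measured with high signal on every array, but Alb, Ttr, Apoa1 and Cyp2e1 did not vary across the 18 arrays, and could therefore show no difference between groups. Of the other hepatocyte markers, Cps1 ranged from 19.24 to 19.74 and Hnf4a from 10.89 to 12.14. Of the clock genes used as a check on the time labels, Arntl was called higher and Dbp and Nr1d1 lower at ZT18 in each treatment. Some arrays stood apart. On HFN ZT18 replicate 1 the 3 measured lymphocyte markers averaged 8.43 there, against 4.60 to 4.91 on the other arrays, and the 3 adipocyte markers averaged 5.62, against 3.90 to 4.10. On 5 arrays (HF ZT6 replicates 2 and 3, CD ZT18 replicates 2 and 3, and CD ZT6 replicate 3) the negative-control median was 4.91 to 5.01, against 4.76 or less elsewhere, and Neat1, a nuclear noncoding RNA, was at 11.09 to 15.16, against at most 8.35 elsewhere. A fit without these 5 arrays keeps only replicate 1 in HF ZT6 and only replicate 1 in CD ZT18. A call lost or kept in that fit therefore does not show how array signal bears on it. In whole liver, fewer cells of a type and less RNA per cell cannot be told apart.

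Promoter windows (250 bases before to 50 after the gene start, RefSeq, GRCm38.p6) were found for 7 of the 10 genes. They are shown for Bnip3 and Ulk1. Bnip3 passed the test in a comparison of the design, and Ulk1 only in an average added after the values had been seen. Capitals in these lines mark matches to the searched motifs, which were CACGTG (the E-box bound by clock factors), TCACGTGA (the palindrome bound by TFEB), TTATGTAA (the D-box) and ACGTG (the core of the hypoxia response element, contained in CACGTG), on both strands.
Bnip3, chr7:138909457-138909756, minus strand: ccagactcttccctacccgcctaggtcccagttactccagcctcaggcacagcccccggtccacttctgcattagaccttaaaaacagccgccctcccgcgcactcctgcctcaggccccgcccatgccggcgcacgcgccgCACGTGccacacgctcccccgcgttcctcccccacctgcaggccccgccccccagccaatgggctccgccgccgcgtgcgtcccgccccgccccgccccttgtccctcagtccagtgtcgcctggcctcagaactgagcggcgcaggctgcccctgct
Ulk1, chr5:110810032-110810331, minus strand: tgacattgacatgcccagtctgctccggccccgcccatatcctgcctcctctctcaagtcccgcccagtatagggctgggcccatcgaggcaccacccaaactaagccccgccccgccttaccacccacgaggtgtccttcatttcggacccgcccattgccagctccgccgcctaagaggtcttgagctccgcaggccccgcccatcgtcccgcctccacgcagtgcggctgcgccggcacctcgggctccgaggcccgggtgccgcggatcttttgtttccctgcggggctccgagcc
The Bnip3 window held the E-box letters CACGTG once, starting at position -108 relative to the gene start, and the shorter ACGTG match lies within them. Of the 9 windows of the 7 genes (Tfeb has 3), that of Bnip3 was the only one with either match. In all 32851 mouse windows CACGTG occurred in 7.15% and ACGTG in 19.62%, while TCACGTGA (0.97%) and TTATGTAA (0.94%) occurred in none of the 9. A match of letters is a description of the sequence and shows no binding.

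Bnip3, the mitophagy receptor whose product sits in the outer mitochondrial membrane, was the one member that separated the high-fat livers from chow livers. Its log2 signals were 11.01, 11.52 and 11.74 in HFN livers at ZT18, 11.14, 11.13 and 11.19 in HF livers at ZT18, and 10.66, 10.75 and 10.13 in CD livers at ZT18. At ZT6 they were 11.23, 11.30 and 11.14 in HFN livers, 11.25, 10.80 and 11.47 in HF livers, and 10.56, 10.46 and 10.69 in CD livers. The 12 high-fat arrays (10.80 to 11.74, median 11.21) all lay above the 6 CD arrays (10.13 to 10.75, median 10.61). Such a separation held for 1 of the 10 members, beside 0.273% of all transcript clusters.

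At ZT18 Bnip3 was higher in HFN than in CD livers by 0.91 on the log2 scale (SE 0.20, a 1.88-fold difference), which passed limma's test with an adjusted p of 0.0400 (Benjamini-Hochberg over all transcript clusters, called where that p is under 0.05 and 1 group's level exceeds the other's by over 25%). It was the only call among the 110 tests of the 10 genes in the 11 comparisons of the design. The mean level was 11.42 ± 0.38 in HFN livers and 10.51 ± 0.33 in CD livers (SD, n = 3 each). Over all transcript clusters 1.06% were called in this comparison, and 2.91% of the 18428 with a single gene symbol and above-median signal. The signals of all 10 genes are above that median. At 4.35 it lies below the negative-control median of every array, so these transcript clusters are not matched in level to the 10 genes. In most comparisons that share was higher than the share over all, and it is given beside the counts with calls below. HFN ZT18 replicate 1, the array with lymphocyte and adipocyte signal, had the lowest Bnip3 of its group, and without it the difference was 1.12 with an adjusted p of 0.0102. The call was lost under 17 of 27 alternatives (adjusted p up to 0.329). Both looser call rules among the 27 (an unadjusted p, or no minimum fold) could not remove it. Of the 17, 12 left out a single array (adjusted p 0.0519 to 0.167). At ZT18 these were HFN replicate 2 or 3, any HF array, and CD replicate 2 or 3. At ZT6 they were any HFN array, and CD replicate 1 or 2. Among the 17 were the fit without the 5 arrays of high negative-control signal (0.77, adjusted p 0.197), the fit on both compared groups alone (adjusted p 0.329), and the fit without CD ZT18 replicate 3, the lowest array (0.72, adjusted p 0.167).

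HF livers differed from CD livers in Bnip3 by similar amounts at both times, but neither difference passed. At ZT18 Bnip3 averaged 11.15 ± 0.04 in HF livers and 10.51 ± 0.33 in CD livers, a difference of 0.64 (SE 0.20, adjusted p 0.173 by limma). At ZT6 the means were 11.17 ± 0.34 in HF livers and 10.57 ± 0.11 in CD livers, a difference of 0.60 (SE 0.20, adjusted p 0.567). HFN livers at ZT6, at 11.22 ± 0.08, stood 0.66 above CD livers (SE 0.20, adjusted p 0.713). Averages over both times were added once these values had been seen. In that average Bnip3 rose in HFN against CD livers by 0.78 (SE 0.14, 1.72-fold, adjusted p 0.0137), where 1 of 10 members, 0.751% of all transcript clusters and 2.14% of the named, brighter ones were called. For HF against CD livers the average was 0.62 (SE 0.14, 1.54-fold, adjusted p 0.0690), so 0 of 10 members passed beside 0.520% of all transcript clusters. The call for HFN livers held with any 1 array left out (without HFN ZT18 replicate 1 it was 0.89, adjusted p 0.00317) but was lost without the 5 arrays of high negative-control signal (0.74, adjusted p 0.0911) and with the negative-control median as a covariate (0.82, adjusted p 0.0527). For HF livers, leaving out HFN ZT18 replicate 1, an array outside this comparison, gave the same 0.62 with an adjusted p of 0.0296. Leaving out HF ZT6 replicate 2 gave 0.72 with an adjusted p of 0.0365. In 16 of the 18 fits with 1 array left out the HF difference stayed uncalled (adjusted p up to 0.172).

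Between HFN and HF livers Bnip3 did not separate. At ZT18 the difference was 0.27 (95% confidence interval from -0.15 to 0.69, adjusted p 0.972 by limma) and the groups overlapped, since HFN replicate 1 lay below all 3 HF arrays. At ZT6 the difference was 0.05 (interval from -0.37 to 0.47). The intervals leave room for a difference of up to 0.69, or for none. HFN and HF livers were set against the same CD arrays, so their differences from CD share those samples.

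Cell type markers were measured beside Bnip3. All 7 Kupffer cell and macrophage markers were measured, and their mean log2 signal spanned 7.77 to 8.46 in HFN livers at ZT18, 7.74 to 7.89 in HF livers at ZT18 and 7.22 to 8.28 in CD livers at ZT18. In HFN against CD livers at ZT18, 6 of 7 stood above 0 and 0 passed limma's test. The mean of the 5 sinusoidal endothelial markers spanned 8.98 to 9.40 in HFN livers, 8.59 to 8.71 in HF livers and 8.43 to 8.79 in CD livers at ZT18, and 1 of the 5 was called higher in HFN than in CD livers. The mean of the 5 stellate cell and fibroblast markers spanned 8.26 to 8.37 in HFN livers, 8.08 to 8.15 in HF livers and 7.76 to 8.07 in CD livers at ZT18, with 0 of 5 called. The part of these cells in the Bnip3 difference was not tested. Across the 18 arrays the correlation of Bnip3 with the negative-control median was -0.26, a description over arrays that share groups.

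**Figure D1:**
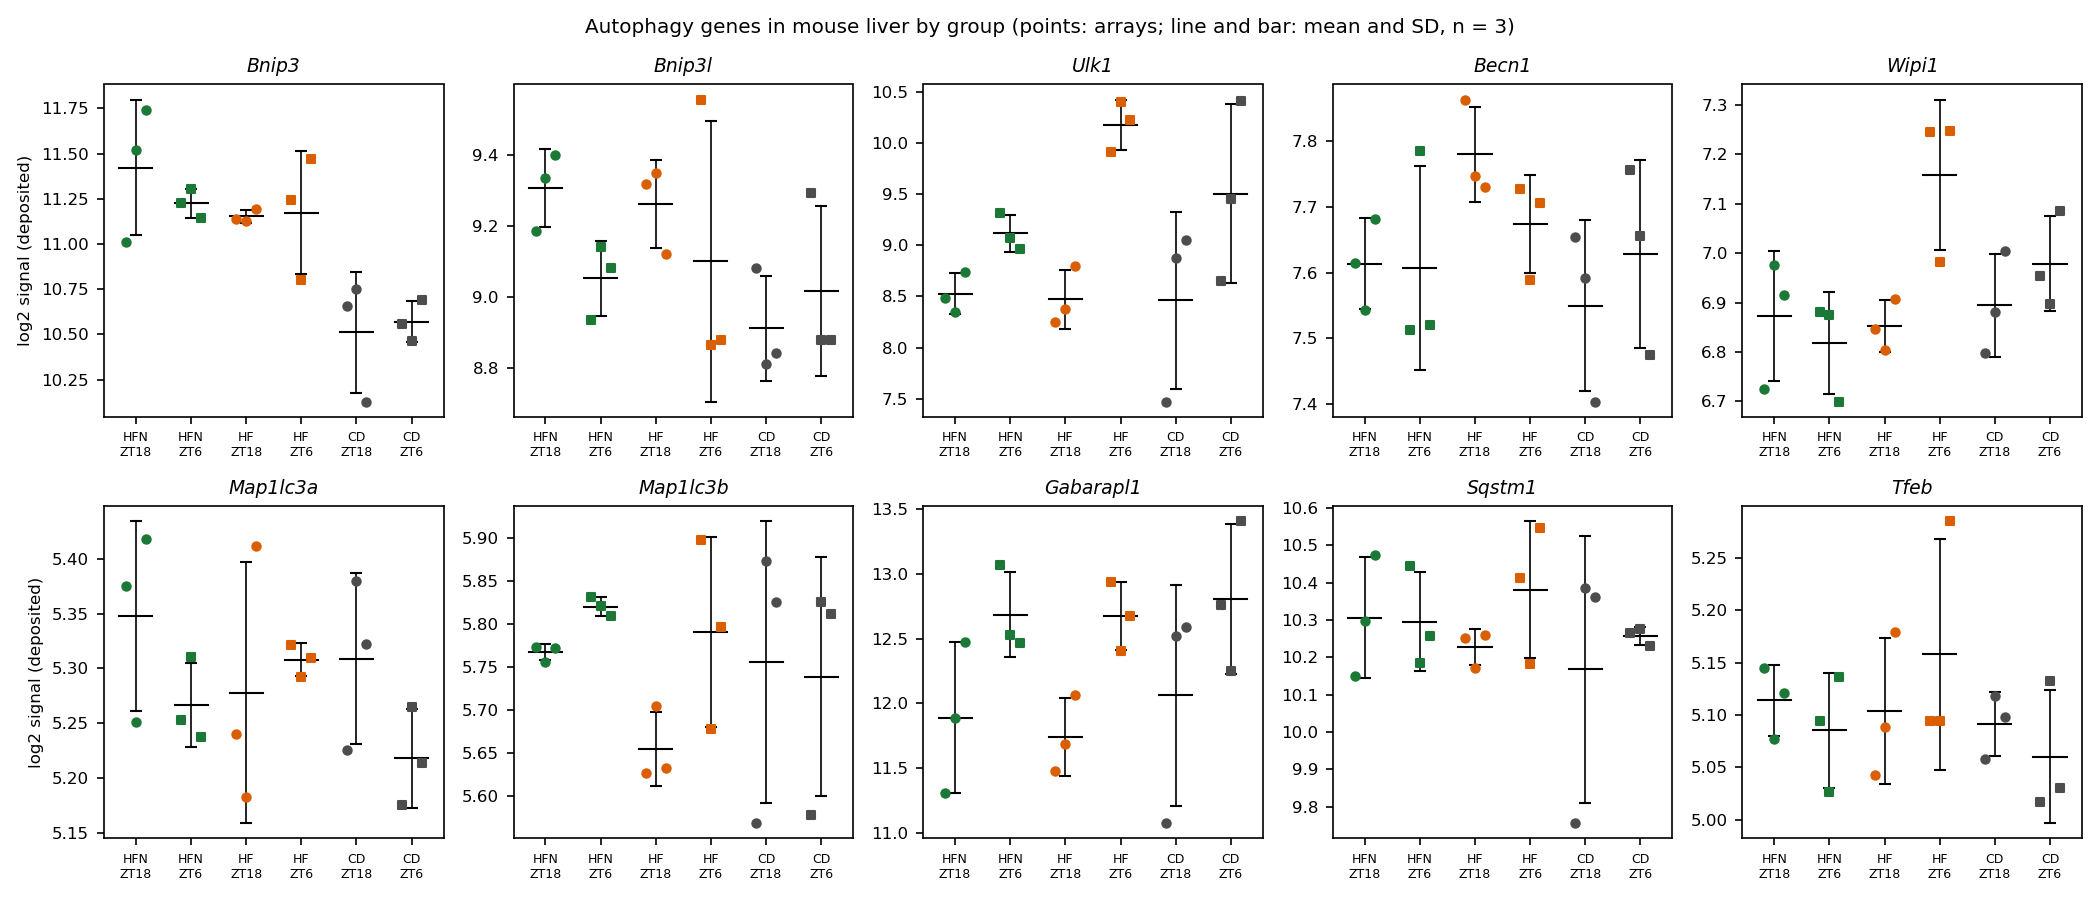
Deposited log2 signal (y axis) of the 10 autophagy genes in the 6 groups (x axis), with a point for each array, a line at the mean and a bar for the SD (n = 3), circles for ZT18 and squares for ZT6. The Bnip3 points of HFN and HF livers (10.80 to 11.74) all sit above those of CD livers (10.13 to 10.75), and Ulk1 is lower at ZT18 in each treatment.

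Bnip3l, whose product NIX is the paralogue of BNIP3 and is known for clearing mitochondria from maturing red cells, followed the same order at ZT18 with smaller differences. Its log2 signals at ZT18 were 9.19, 9.34 and 9.40 in HFN livers, 9.32, 9.35 and 9.12 in HF livers, and 9.08, 8.81 and 8.84 in CD livers. All 6 high-fat arrays at ZT18 lay above all 3 CD arrays. At ZT18, 15.2% of all transcript clusters kept HFN apart from CD and 15.8% kept HF apart from CD. The share that did both was not counted. At ZT6 the signals were 8.94, 9.14 and 9.08 in HFN livers, 9.56, 8.87 and 8.88 in HF livers, and 9.29, 8.88 and 8.88 in CD livers, and the groups overlapped. In HFN livers ZT18 lay wholly above ZT6 (difference 0.25, SE 0.17, adjusted p 0.840 by limma). Bnip3l did not pass in any comparison. The difference between HFN and CD livers at ZT18 was 0.40 (SE 0.17, adjusted p 0.285 by limma) and that between HF and CD livers was 0.35 (SE 0.17, adjusted p 0.408). On the 5 arrays of high negative-control signal Bnip3l was at 8.88 or lower (r = -0.63 with the negative-control median over 18 arrays), and with that median as a covariate the HFN difference was 0.13 (adjusted p 0.859).

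Ulk1, the kinase that starts autophagosome formation, had the largest average difference with the time of day among the 10. Its log2 signals in HFN livers were 8.48, 8.35 and 8.74 at ZT18 and 9.31, 9.07 and 8.96 at ZT6. In HF livers they were 8.25, 8.38 and 8.80 at ZT18 and 9.91, 10.40 and 10.22 at ZT6. In CD livers they were 7.47, 8.87 and 9.05 at ZT18 and 8.65, 9.45 and 10.41 at ZT6. ZT18 lay wholly below ZT6 in HFN and in HF livers, while the CD groups overlapped. Of all transcript clusters, 11.3% kept the 2 times apart in HFN livers and 20.7% in HF livers.

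The ZT18 minus ZT6 difference of Ulk1 was -0.59 in HFN livers (SE 0.40, adjusted p 0.854 by limma), -1.70 in HF livers (SE 0.40, adjusted p 0.0694) and -1.04 in CD livers (SE 0.40, adjusted p 0.558), and none of these passed. The average over the 3 treatments, added after the values had been seen, was -1.11 (SE 0.23, 95% interval from -1.61 to -0.61, adjusted p 0.0208), a level 2.16-fold lower at ZT18, and here 1 of 10 members, 1.60% of all transcript clusters and 4.37% of the named, brighter ones were called. That call held under all 27 alternatives, with values between -1.25 and -0.85 and adjusted p between 0.00501 and 0.0499. Both looser call rules among them could not remove it. The compared groups here are all groups, so that fit repeats the main one. In HF livers the day to night difference depended on the setting: it passed with the replicate block (adjusted p 0.0384), among brighter transcript clusters (0.0443) and in the fit on both HF groups alone (0.0240), and without CD ZT6 replicate 1 (0.0382), CD ZT6 replicate 3 (0.0273) or CD ZT18 replicate 1 (0.0202), while the negative-control covariate gave -0.72 (adjusted p 0.672). Over the 18 arrays Ulk1 correlated with the negative-control median at r = 0.68, and its 3 highest values were on arrays of high negative-control signal. Without those 5 arrays the average was -1.20 (adjusted p 0.0123), and without HFN ZT18 replicate 1 its adjusted p was 0.0365. In HF livers 0 of 7 Kupffer cell and macrophage markers stood above 0 for ZT18 against ZT6, with a median difference of -0.85 and 0 called, and the part of those cells in the Ulk1 difference was not tested.

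At ZT6 Ulk1 averaged 9.12 ± 0.18 in HFN livers and 10.18 ± 0.25 in HF livers, a difference of -1.06 with no overlap (SE 0.40, 2.08-fold, interval from -1.93 to -0.19) that did not pass (adjusted p 0.673 by limma). With the negative-control covariate it was -0.11. The mean of the Kupffer cell and macrophage markers was 7.74 to 8.21 in HFN livers at ZT6 and 8.41 to 8.94 in HF livers at ZT6, with 0 of 7 called, and its part was not tested. At ZT18 Ulk1 averaged 8.53 ± 0.20 in HFN livers and 8.47 ± 0.29 in HF livers, a difference of 0.05 (interval from -0.81 to 0.92). The change of the day to night difference between HFN and HF livers was 1.11 (SE 0.57, adjusted p 0.820) and was not called.

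**Figure D2:**
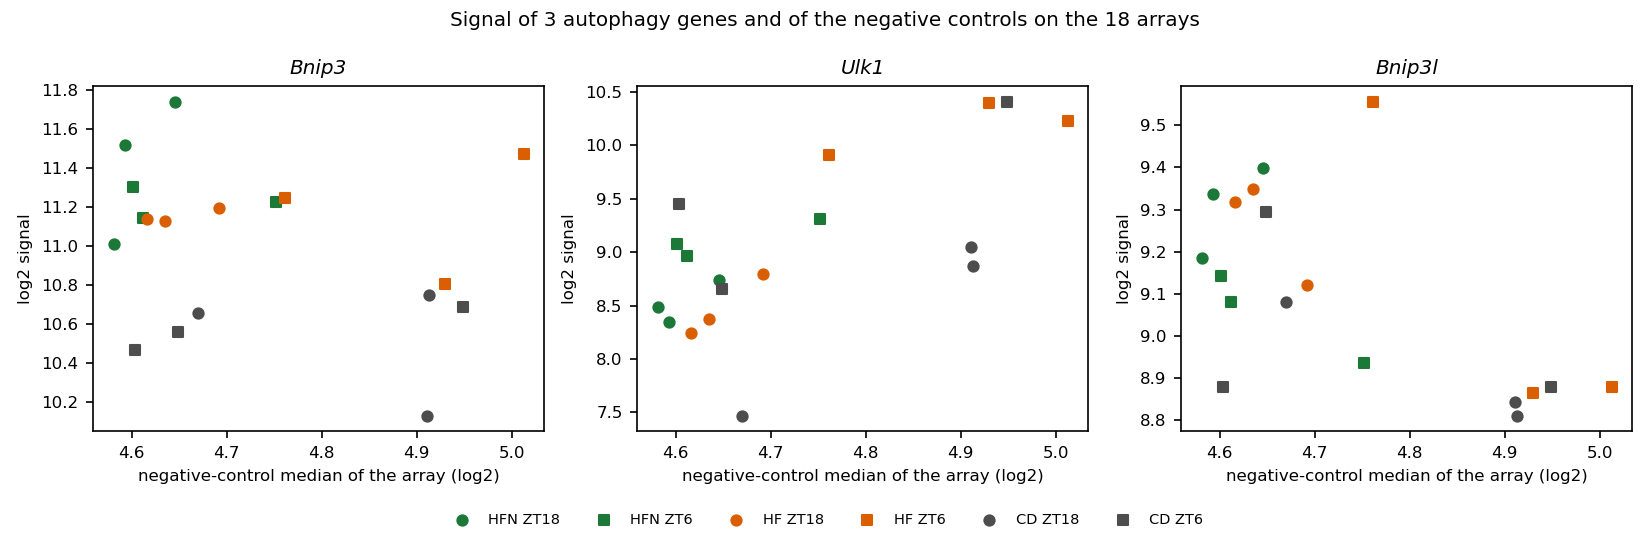
Deposited log2 signal (y axis) of Bnip3, Ulk1 and Bnip3l against the median log2 signal of the negative-control probes (x axis), with a point for each of the 18 arrays, coloured by treatment, circles for ZT18 and squares for ZT6. The highest Ulk1 values lie at the right, but Ulk1 is not high on every array there (r = 0.68). Bnip3l is low on the arrays at the right (r = -0.63), and Bnip3 has r = -0.26.

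Gabarapl1, an ATG8 protein of the GABARAP branch that binds the receptors above, shared the direction of Ulk1. Its log2 signals in HFN livers were 11.31, 11.89 and 12.47 at ZT18 and 13.07, 12.53 and 12.47 at ZT6. In HF livers they were 11.48, 11.69 and 12.07 at ZT18 and 12.94, 12.41 and 12.68 at ZT6. In CD livers they were 11.07, 12.52 and 12.59 at ZT18 and 12.76, 12.25 and 13.41 at ZT6. ZT18 lay wholly below ZT6 in HF livers only. The differences were -0.80 in HFN, -0.93 in HF and -0.75 in CD livers (SE 0.40 each), and the average of -0.82 (SE 0.23, interval from -1.32 to -0.33) missed the threshold (limma, adjusted p 0.0942). Between treatments Gabarapl1 differed by at most 0.32 at either time, within intervals that reached from -1.17 to 1.00.

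Wipi1, a protein that reads the lipid mark on the growing membrane, was highest in HF livers at ZT6. Its log2 signals at ZT6 were 6.88, 6.87 and 6.70 in HFN livers, 7.24, 6.98 and 7.25 in HF livers, and 6.95, 6.90 and 7.08 in CD livers. At ZT18 they were 6.72, 6.98 and 6.92 in HFN livers, 6.85, 6.80 and 6.91 in HF livers, and 6.80, 6.88 and 7.0 in CD livers. HFN lay below HF at ZT6 with no overlap, by 0.34 on the log2 scale (the difference was -0.34, SE 0.09, 1.27-fold, adjusted p 0.603 by limma). In HF livers ZT18 lay wholly below ZT6 (difference -0.31, SE 0.09, adjusted p 0.159). HFN livers at ZT6 also lay below the CD arrays with no overlap (difference -0.16, SE 0.09). None of these passed, and Wipi1 correlated with the negative-control median at r = 0.64.

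**Figure D3:**
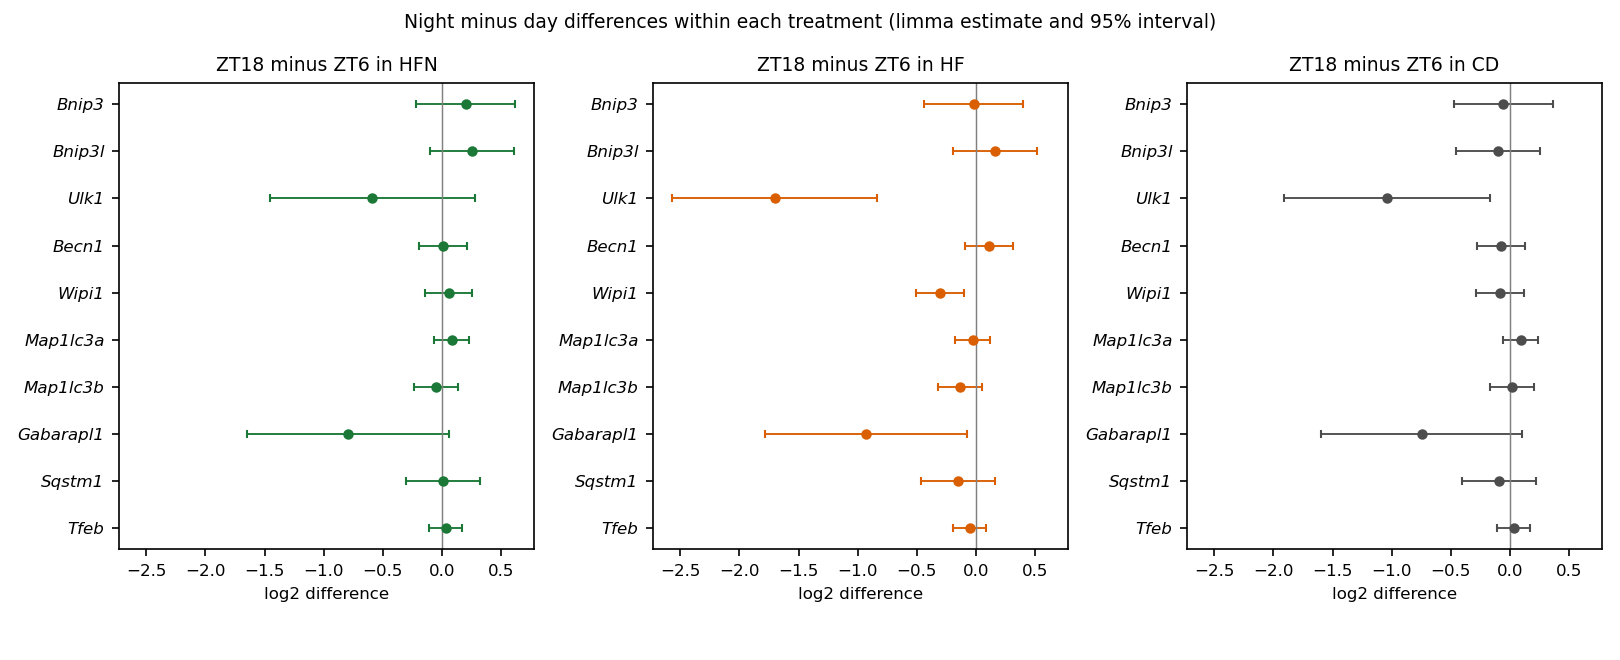
ZT18 minus ZT6 differences in log2 signal (x axis) of the 10 genes (y axis) in HFN, HF and CD livers, each with its limma estimate and 95% interval. Ulk1 (-0.59, -1.70 and -1.04) and Gabarapl1 (-0.80, -0.93 and -0.75) lie left of 0 in the 3 panels, and the other genes lie between -0.31 and 0.25.

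Becn1, the beclin 1 subunit of the lipid kinase complex, had log2 signals of 7.40 to 7.86 over the 18 arrays. At ZT18 it was 7.86, 7.75 and 7.73 in HF livers against 7.65, 7.59 and 7.40 in CD livers, which did not overlap (difference 0.23, SE 0.10, adjusted p 0.324 by limma), and 7.62, 7.54 and 7.68 in HFN livers, all below the HF arrays (difference -0.17, SE 0.10, adjusted p 0.909). Becn1 therefore had no call in either comparison. Sqstm1, which encodes the ubiquitin-binding receptor p62, ranged from 9.76 to 10.55. Its lowest value was CD ZT18 replicate 1, the array that was also lowest in Ulk1 and Gabarapl1, and its group means spanned 10.17 to 10.38. Map1lc3a and Map1lc3b, the LC3 genes, ranged from 5.18 to 5.42 and from 5.57 to 5.90. In HFN livers Map1lc3b was 5.77, 5.76 and 5.77 at ZT18 and 5.83, 5.82 and 5.81 at ZT6, and in HF livers at ZT18 it was 5.63, 5.70 and 5.63, all below the HFN arrays of that time (difference between HFN and HF 0.11, SE 0.09, adjusted p 0.981). Tfeb ranged from 5.02 to 5.29, with group means of 5.06 to 5.16. These 5 genes passed in no comparison, and their differences reached at most 0.23 in size over the 9 pairwise comparisons. Of the 10 genes, Tfeb (mean 5.10), Map1lc3a (5.29) and Map1lc3b (5.75) lay closest to the negative-control medians (4.58 to 5.01). Differences in these genes may therefore be understated.

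Counted by comparison, the 10 genes gave few calls, as did the array as a whole. For ZT18 against ZT6, 0 of 10 were called in HFN, HF and CD livers, beside 0.246%, 0.866% and 0.376% of all transcript clusters. At an unadjusted p under 0.05 with the same fold, 0 members stood in HFN livers, 2 in HF livers (Ulk1 and Gabarapl1) and 1 in CD livers (Ulk1), beside 4.11%, 8.83% and 4.15% of all. In HF livers the ZT18 and ZT6 arrays did not overlap for 4 of 10 members, Gabarapl1, Ulk1 and Wipi1 below and Becn1 above, beside 20.7% of all. In HFN livers they did not overlap for 3 of 10 (Bnip3l, Ulk1 and Map1lc3b), beside 11.3% of all. No member kept all 9 ZT18 arrays apart from all 9 ZT6 arrays, which 0.435% of all transcript clusters did.

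For HFN against HF livers, 0 of 10 members and 0% of all transcript clusters were called by limma at either time. At an unadjusted p, Ulk1 and Wipi1 stood at ZT6 (2 of 10, beside 4.07% of all) and 0 members at ZT18 (beside 2.81%). The HFN and HF arrays did not overlap for Ulk1 and Wipi1 at ZT6 (2 of 10, beside 13.1% of all). At ZT18 they did not overlap for Map1lc3b and Becn1 (2 of 10, beside 11%). The median difference of the 10 was -0.06 at ZT6 and 0.06 at ZT18, with 3 and 9 of 10 above 0. The named, brighter transcript clusters had medians of -0.0001 and 0.03, and their share above 0 was not counted. For HFN against CD livers, 0 of 10 were called at ZT6 (beside 0.0318%) and 1 of 10 at ZT18, and unadjusted 1 stood at ZT6 (Bnip3, beside 2.12%) and 2 at ZT18 (Bnip3 and Bnip3l, beside 10%). The same 2 genes kept the HFN and CD arrays apart at ZT18, beside 15.2% of all. At ZT6 Bnip3 and Wipi1 did so (2 of 10, beside 9.27%). For HF against CD livers, 0 of 10 were called at ZT6 (beside 0.0440%) and at ZT18 (beside 0.606%), and unadjusted Bnip3 alone stood at each time (beside 3.36% at ZT6 and 8.87% at ZT18). Bnip3, Bnip3l and Becn1 kept the HF and CD arrays apart at ZT18 (3 of 10, beside 15.8%). At ZT6 Bnip3 and Map1lc3a did so (2 of 10, beside 10.9%). The day to night difference itself changed in 0 of 10 members and 0% of all between HFN and HF livers and between HF and CD livers, and unadjusted 1 member (Wipi1, 0.36, beside 5% of all) and 0 members (beside 8.08%) stood.

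**Figure D4:**
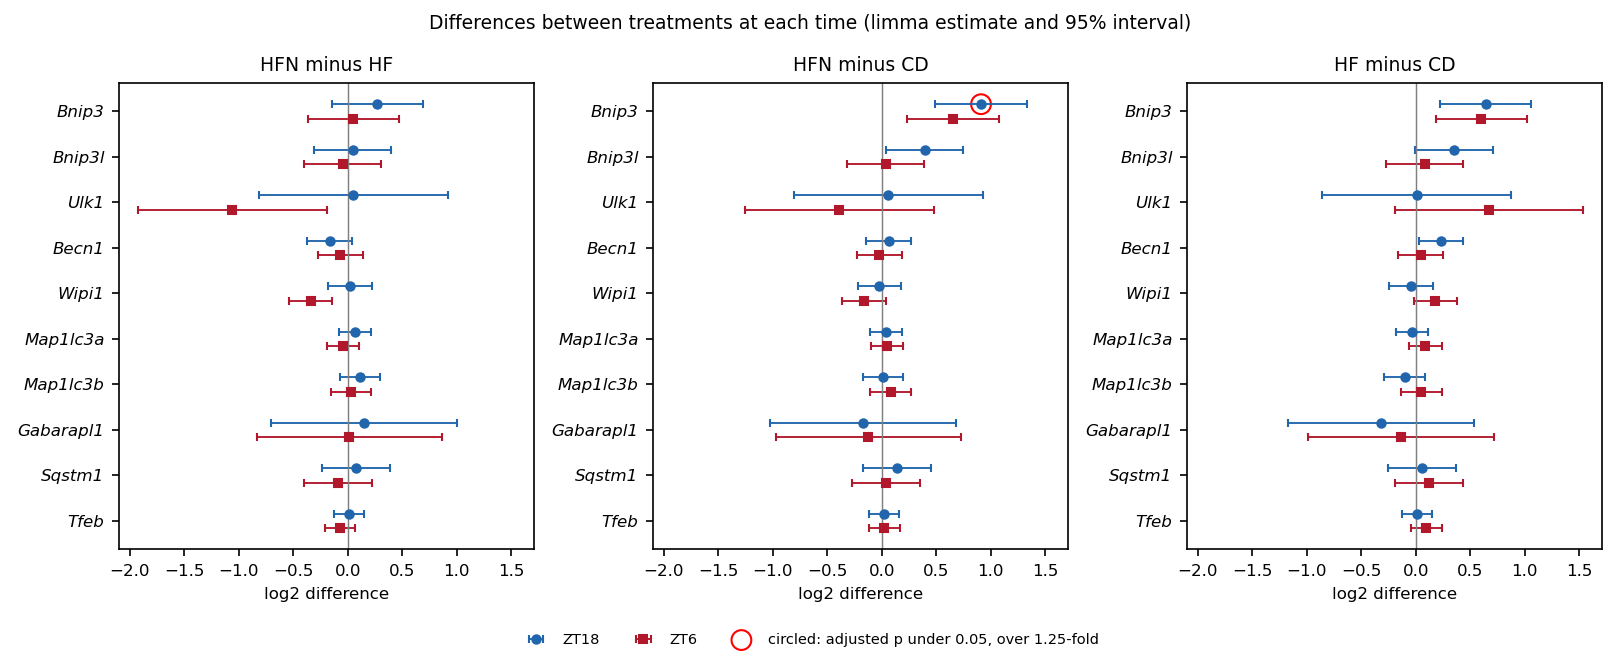
Differences in log2 signal (x axis) of the 10 genes (y axis) for HFN minus HF, HFN minus CD and HF minus CD, each with its limma estimate and 95% interval, circles for ZT18 and squares for ZT6. The one circled call is Bnip3 in HFN minus CD at ZT18 (0.91), and in the HFN minus HF panel Bnip3 lies at 0.27 and 0.05.

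Correlations between the members went both ways. Of 45 pairs, 17 had a Pearson correlation below 0 over the 18 arrays, with a range from -0.42 (Map1lc3b and Becn1) to 0.77 and a median of 0.23. Over the 18 arrays Ulk1 and Gabarapl1 had 0.77, Ulk1 and Wipi1 of 0.68, and Gabarapl1 and Sqstm1 of 0.64, while Bnip3 and Bnip3l had 0.52 and Bnip3 and Ulk1 -0.03 and Bnip3l and Ulk1 -0.41. After the group means were removed the correlation of Gabarapl1 with Sqstm1 was 0.78 and with Ulk1 0.70, and that of Bnip3 with Bnip3l 0.24. These are descriptions over arrays that share groups and array signal. Among 18427 transcript clusters of a single gene and above-median signal, those most like Bnip3 over the 18 arrays were the predicted gene Gm16439 (r = 0.90), Acad11, an acyl-CoA dehydrogenase (0.90), and Cyp4a14, a fatty acid hydroxylase with close paralogues (0.89). Those most like Ulk1 were Tom1l2 (0.98), Calcoco1, a receptor for parts of the endoplasmic reticulum and Golgi (0.96), and Cobll1 (0.95).

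The rest of the pathway was read from a list of 73 other autophagy and lysosome genes, of which 68 were analysed, each by a transcript cluster of its own. Between ZT18 and ZT6 the calls in HFN livers were 1 of 68 (higher), in HF livers 3 (lower) and in CD livers 2 (1 higher and 1 lower), with median differences of 0.02, -0.14 and -0.04. These are 1.47%, 4.41% and 2.94% of the list, beside 0.727%, 2.43% and 1.06% of the named, brighter transcript clusters. A single gene is 1.47% of the list. The median differences of those transcript clusters were 0.05, 0.02 and -0.03. Retreg1, a receptor that delivers endoplasmic reticulum to autophagy, fell at ZT18 in HF livers (6.35, 6.65 and 6.69 at ZT18, 7.26, 7.28 and 7.24 at ZT6, difference -0.70, adjusted p 0.0133 by limma) and in CD livers (6.34, 6.48 and 6.59 at ZT18, 7.44, 7.08 and 7.46 at ZT6, difference -0.86, adjusted p 0.00520). In HFN livers Retreg1 was 6.52, 6.69 and 6.82 at ZT18 and 7.20, 7.37 and 7.17 at ZT6, and it was not called there (difference -0.57, adjusted p 0.0726). Both calls of Retreg1 were lost without the 5 arrays of high negative-control signal (adjusted p 0.265 in HF and 0.196 in CD livers), and the call in HF livers also without HF ZT6 replicate 2, HF ZT6 replicate 3 or HF ZT18 replicate 1. Without HFN ZT18 replicate 1 both held (adjusted p 0.0111 in HF and 0.00506 in CD livers).

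Ddit4, an inhibitor of mTORC1 signalling, rose at ZT18 in HFN livers (5.19, 5.30 and 5.57 at ZT18, 4.35, 4.57 and 4.66 at ZT6, difference 0.82, adjusted p 0.00977 by limma) and in CD livers (5.28, 4.89 and 5.27 at ZT18, 4.46, 4.35 and 4.30 at ZT6, difference 0.78, adjusted p 0.0101). In HF livers Ddit4 was 5.02, 4.87 and 4.96 at ZT18 and 4.32, 4.52 and 4.46 at ZT6, again with no overlap (difference 0.52, adjusted p 0.0619). The call in HFN livers was lost without HFN ZT6 replicate 1 but held without HFN ZT18 replicate 1 (adjusted p 0.00875). That in CD livers was lost without CD ZT18 replicate 3 and without the 5 arrays of high negative-control signal (adjusted p 0.164). Over all alternatives the adjusted p was at most 0.240 in HFN and 0.344 in CD livers. Ddit4 lay above its array's negative-control median on 8 of 9 ZT18 arrays and 1 of 9 ZT6 arrays (an HFN one), so most of its ZT6 values are only bounds. With each ZT6 value set to at least that median, Ddit4 was at least 1.60-fold higher at ZT18 in HFN livers and at least 1.04-fold in HF livers. The same step gave 1.33-fold in CD livers and 1.30-fold on average over the treatments. These last values are not lower bounds, since only 2 of 3 CD arrays at ZT18 lay above their median. Averaged over the 3 treatments, 4 of 68 genes were called, 3 lower and 1 higher at ZT18, which is 5.88% of the list beside 4.37% of the named, brighter transcript clusters and so near that share. Retreg1 fell by 0.71 on the log2 scale (adjusted p 4.01e-05 by limma) and Ddit4 was called higher (adjusted p 4.96e-05), with the fold of 1.30 given above. Wdr45, a relative of Wipi1, fell by 0.44 (adjusted p 0.00136) and Calcoco1 by 0.57 (adjusted p 0.0277). The calls of Retreg1, Wdr45 and Ddit4 in that average held under all 27 alternatives. Among these, both looser call rules and the fit on the compared groups could not remove them. The call of Calcoco1 was lost without any 1 of 8 arrays (adjusted p up to 0.0665). It held without HFN ZT18 replicate 1 (0.0408) and without the 5 arrays of high negative-control signal (0.0132). In HF livers Wdr45 (difference -0.56, adjusted p 0.0287) and Uvrag, a partner of beclin 1 (-0.56, adjusted p 0.0412), were lower at ZT18. Neither held without any 1 of the 6 HF arrays, nor without the 5 arrays of high negative-control signal (adjusted p 0.0758 for Wdr45 and 0.447 for Uvrag), and over all alternatives the adjusted p reached at most 0.426 for Wdr45 and 0.493 for Uvrag. Without HFN ZT18 replicate 1 the call of Uvrag was lost (adjusted p 0.0501) and that of Wdr45 held (0.0340).

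**Figure D5:**
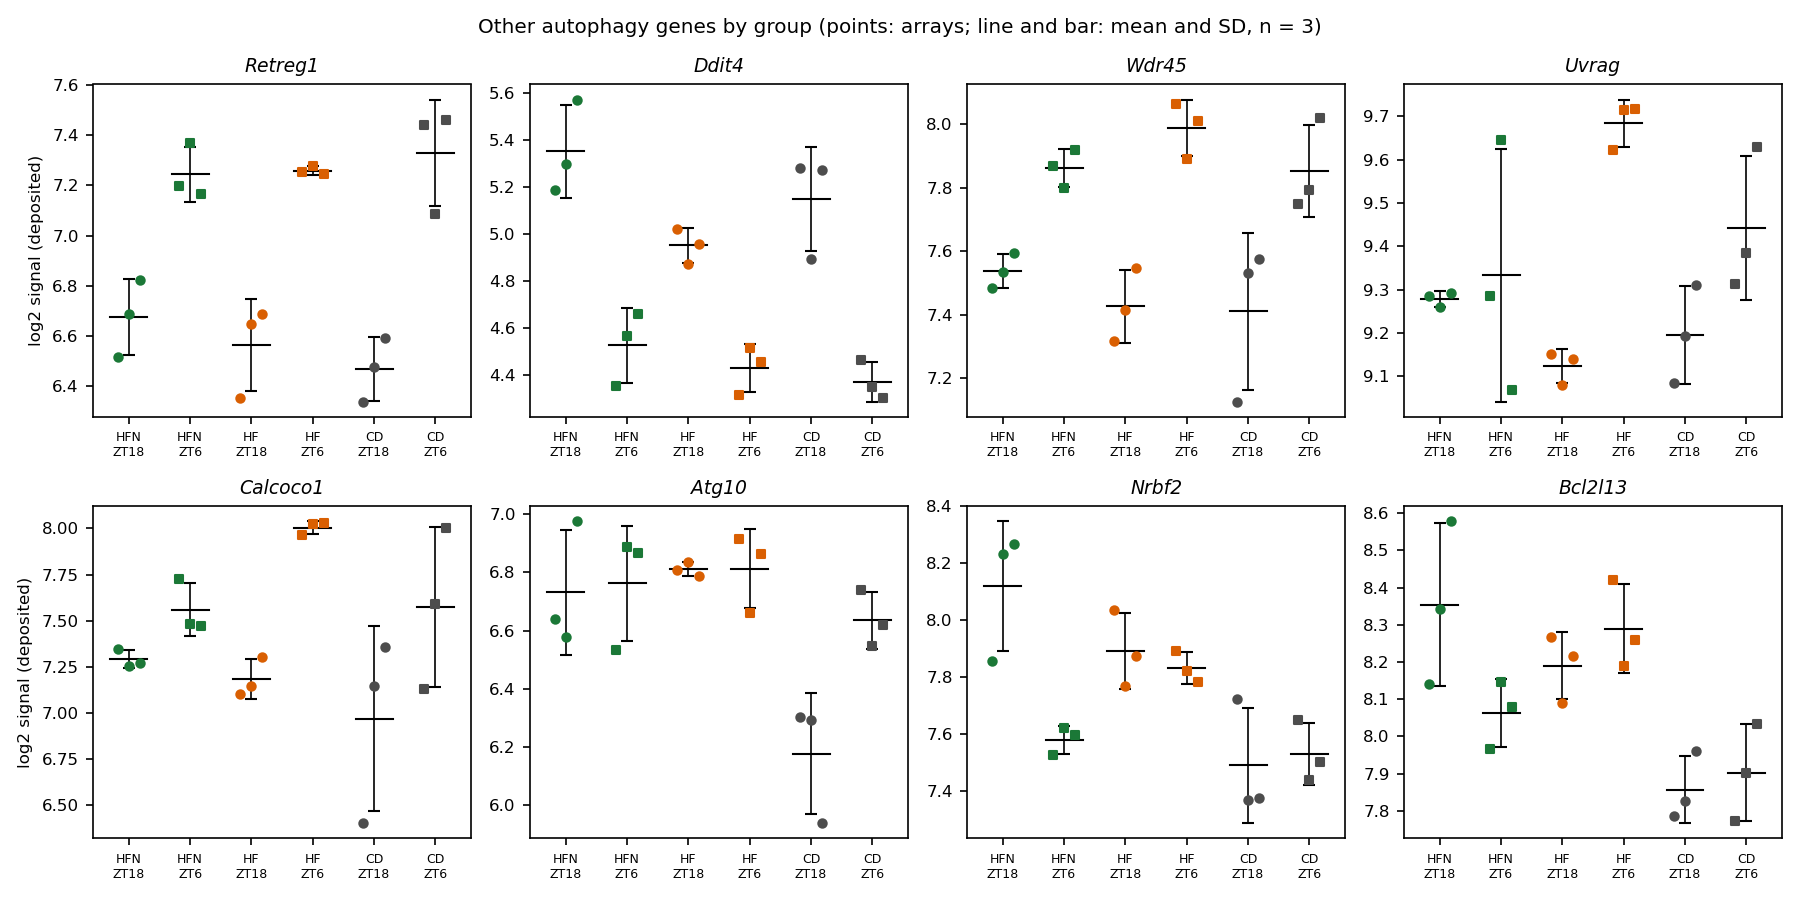
Deposited log2 signal (y axis) of 8 other autophagy genes in the 6 groups (x axis), with a point for each array, a line at the mean and a bar for the SD (n = 3), circles for ZT18 and squares for ZT6. Retreg1 is lower and Ddit4 higher at ZT18 in each treatment with no overlap, and Nrbf2 and Bcl2l13 are higher at ZT18 in HFN than in CD livers.

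Against CD livers at ZT18, HFN livers had 2 of 68 other genes called, both higher. That is 2.94% of the list, beside 2.91% of the named, brighter transcript clusters, so the list stood at the background share. The median difference of the list was 0.14, beside 0.09 among those transcript clusters. Nrbf2, a subunit of the lipid kinase complex, was 7.86, 8.23 and 8.27 in HFN livers and 7.72, 7.37 and 7.38 in CD livers (difference 0.63, SE 0.12, adjusted p 0.0205 by limma). Bcl2l13, a mitophagy receptor of the mitochondrial outer membrane like BNIP3, was 8.14, 8.34 and 8.58 in HFN livers and 7.79, 7.83 and 7.96 in CD livers (difference 0.50, SE 0.11, adjusted p 0.0428). Neither pair of groups overlapped. Without HFN ZT18 replicate 1 the adjusted p was 0.00456 for Nrbf2 and 0.0131 for Bcl2l13, with 4 of 68 genes called. Without the 5 arrays of high negative-control signal neither passed (0.421 and 0.189), nor did either without CD ZT18 replicate 2 or 3 or HFN ZT18 replicate 2 or 3, and Bcl2l13 was called under 9 of 27 alternatives. In the average of both times, HFN livers had 2 of 68 called against CD livers, Gabarapl2, another ATG8 gene (difference 0.34, adjusted p 0.0307), and Hexa, a lysosomal enzyme (0.49, adjusted p 0.0424). Gabarapl2 held under 14 and Hexa under 10 of 27 alternatives (adjusted p up to 0.313 and 0.212, both without the 5 arrays of high negative-control signal), and without HFN ZT18 replicate 1 their adjusted p was 0.0113 and 0.0375. The 2 calls are 2.94% of the list, beside 2.14% of the named, brighter transcript clusters.

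HF livers had 1 of 68 called against CD livers at ZT18, Atg10, the enzyme that joins ATG12 to ATG5, at 6.81, 6.84 and 6.79 in HF livers and 6.30, 6.29 and 5.94 in CD livers (difference 0.63, SE 0.13, adjusted p 0.0408 by limma). Atg10 was called under 13 of 27 alternatives, and its call was lost without CD ZT18 replicate 2 or 3, without any 1 HF ZT18 array, and with the 5 arrays left out (adjusted p 0.446), and held without HFN ZT18 replicate 1 (0.0428). The single call is 1.47% of the list, beside 1.79% of the named, brighter transcript clusters. At ZT6, 0 of 68 passed for HF against CD livers (unadjusted 4), and the lowest p belonged to Bcl2l13 (0.39, adjusted p 0.455) and Mtor, the kinase that holds autophagy back (0.69, adjusted p 0.497). For HFN against CD livers at ZT6, 0 of 68 passed (unadjusted 2), with Prkaa1, an AMPK subunit, at -0.37 (adjusted p 0.643) and Gabarapl2 at 0.29 (adjusted p 0.865). For HFN against HF livers, 0 of 68 passed at ZT6 (unadjusted 6) or at ZT18 (unadjusted 2). The lowest p there belonged to Mcoln1, a lysosomal ion channel (-0.42, adjusted p 0.604), and Tfe3, a relative of Tfeb (-0.33, adjusted p 0.616), at ZT6, and to Ddit4 (0.40, adjusted p 0.849) and Ctsb, a lysosomal protease (0.54, adjusted p 0.866), at ZT18. The day to night difference changed in 0 of 68 between HFN and HF livers (unadjusted 10, Uvrag 0.51 and Atg3 -0.54 with an adjusted p of 0.765 each) and between HF and CD livers (unadjusted 17, Sesn2 -0.35 at 0.483 and Atg4d -0.52 at 0.490). Beside these unadjusted counts, all transcript clusters gave 3.36% for HF and 2.12% for HFN against CD livers at ZT6. For HFN against HF livers they gave 4.07% at ZT6 and 2.81% at ZT18. For the day to night change they gave 5% between HFN and HF and 8.08% between HF and CD livers. The unadjusted share of the named, brighter transcript clusters was not counted.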

How the data were processed

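Gene expression was measured in total liver RNA of 18 mice on mouse Clariom D arrays, 1 array per mouse and 3 per group. The deposited values are log2 signals that the authors normalized with the Transcriptome Analysis Console under default parameters. For the summarization method and the genome build the sources used here give nothing, and another normalization could shift every difference. Of 72688 entries, 6732 control probe sets were left out, which left 65956 transcript clusters, 31292 with 1 gene symbol, 1522 with several and 33142 with none in the platform annotation. Symbols were updated by gene identifier with RefSeq. All 10 genes had 1 transcript cluster, so the mean over several clusters of a symbol could give no other value. Arrays carry no read depth, and their number limits the precision.

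All 18 arrays entered 1 linear model, in which each group had its own mean, in limma 3.58.1 (R 4.3.3; 12 residual and 2.27 prior degrees of freedom), with Benjamini-Hochberg adjustment over all transcript clusters in each of 11 comparisons. A call needed an adjusted p under 0.05 and a fold over 1.25. The study's text gives more than one fold minimum, and its methods name a corrected p, so an unadjusted p with the same fold is only an alternative here. With 3 against 3 arrays an exact permutation test cannot go below 0.1, so none was used. A further 4 averaged comparisons were added after the values had been seen. On simulated data of the comparison of HFN with CD livers at ZT18 over 65956 transcript clusters, the fit recovered 18 of 50 changes of 1.5-fold. It recovered 30 of 50 of 2-fold and 43 of 50 of 3-fold, with 2 false calls. The simulated data need not carry the array-wide differences described above. They held only the changes counted here, while 698 transcript clusters were called in this comparison of the deposited arrays. The adjusted p depends on how many transcript clusters change, so these counts may not hold for the deposited arrays.

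All 10 genes, the genes called in each comparison (up to 4, or else the 2 of lowest p) and the 3 genes most correlated with each called member are named. The alternatives were a replicate block, brighter transcript clusters only, an intensity trend together with a robust prior, quantile normalization, the negative-control median as a covariate, leaving out 5 arrays or each array in turn, the compared groups alone, and both other call rules. Leaving out the 5 arrays keeps only replicate 1 in HF ZT6 and in CD ZT18. Both other call rules (an unadjusted p, or no minimum fold) are looser than the main one and could not remove a call. For the average over the 3 treatments the compared groups are all groups, so that fit repeats the main one. Members, gene lists and comparisons were chosen with earlier results of these data known. Of the 73 other genes, 5 are not analysed here. Promoter sequences of Map1lc3a, Becn1 and Bnip3l were not used here.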

Additional observations from a re-analysis of the deposited data

How the results depend on the processing

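No value of the 10 genes that was called changed direction under the 27 alternatives. Over all members and comparisons 4008 values stayed on their side of the threshold, 19 lost a call and 23 gained one. Most of the 4008 were not called in the main fit, and 211 of them changed sign. The losses could come only from values called in the main fit. These were Bnip3 for HFN against CD at ZT18 (17 lost) and on average (2 lost), and Ulk1 for ZT18 against ZT6 on average (0 lost). Counts below are genes called among the 10 members or the 68 other autophagy genes. The replicate numbers did not pair the arrays (mean correlation of same-numbered deviations -0.0008, 14 of 45 over 0.1). With the replicate block, 0 members were called for HFN against CD at ZT18, 1 for ZT18 against ZT6 in HF, and 0 other genes for HF against CD at ZT18, and no other count moved. Without the 5 arrays of high negative-control signal, 0 members were called for HFN against CD at ZT18 and on average, and 0 other genes in both, in HF against CD at ZT18, and for ZT18 against ZT6 in HF and CD. With the negative-control covariate, members gave 0 for HFN against CD at ZT18 and on average and 1 (Ulk1) for ZT18 against ZT6 in CD, and other genes gave 1 and 1 for HFN against CD at ZT18 and on average, 0 and 3 for HF against CD at ZT18 and on average, and 2, 0 and 5 for ZT18 against ZT6 in HFN, HF and CD. In the fit on the compared groups alone, members gave 0 for HFN against CD at ZT18 and 1 for ZT18 against ZT6 in HF, and other genes gave 0 for HFN against CD at ZT18 and on average, HF against CD at ZT18, and ZT18 against ZT6 in HFN and CD. With a trend and a robust prior, members gave 0 for HFN against CD at ZT18, and other genes 1 there, 0 on average and 0 for HF against CD at ZT18. With quantile normalization, members gave 1 for HF against CD on average, and other genes 0 for HFN against CD at ZT18 and on average and 2 for ZT18 against ZT6 in HFN. Among brighter transcript clusters, members gave 1 for HF against CD on average and 1 for ZT18 against ZT6 in HF, and other genes 6 for HFN against CD at ZT18, 2 for HF against CD on average and 8 for ZT18 against ZT6 in HF. Without a minimum fold, other genes gave 10 for ZT18 against ZT6 on average.

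At an unadjusted p with the same fold, members gave 2 and 0 for HFN against HF at ZT6 and ZT18, 1 and 2 for HFN against CD, 1 and 1 for HF against CD, 1 for HF against CD on average, 0, 2 and 1 for ZT18 against ZT6 in HFN, HF and CD, 2 on average, and 1 for the day to night change between HFN and HF. Other genes gave 6 and 2 for HFN against HF at ZT6 and ZT18, 2 and 14 for HFN against CD, 4 and 16 for HF against CD, 10 and 8 for HFN and HF against CD on average, 9, 25 and 10 for ZT18 against ZT6 in HFN, HF and CD, 11 on average, and 10 and 17 for the day to night change of HFN against HF and of HF against CD. Over all transcript clusters that rule called 4.07% and 2.81% for HFN against HF at ZT6 and ZT18. For HFN against CD it called 2.12% and 10%, and for HF against CD 3.36% and 8.87%. Averaged over both times it called 5.84% for HFN and 3.53% for HF against CD. For ZT18 against ZT6 it called 4.11%, 8.83% and 4.15% in HFN, HF and CD, and 3.8% on average. For the day to night change it called 5% for HFN against HF and 8.08% for HF against CD.

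With each array left out in turn, members gave 0 to 1 for HFN against CD at ZT18, for HF against CD on average and for ZT18 against ZT6 in HF, 1 to 1 for HFN against CD and for ZT18 against ZT6 on average, and 0 to 0 otherwise. Other genes gave 0 to 4 for HFN against CD at ZT18 and on average, 0 to 6 and 0 to 2 for HF against CD at ZT18 and on average, 0 to 2, 0 to 10 and 1 to 3 for ZT18 against ZT6 in HFN, HF and CD, and 3 to 7 on average. The 3 arrays per group limit the precision.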
